A study of Mus musculus with 49 samples.

Results

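The CC chemokines examined here are Ccl2, Ccl3, Ccl4, Ccl5, Ccl6, Ccl7, Ccl9, Ccl17, Ccl22 and Ccl24. They are 10 of the 18193 genes with an own probe set on the arrays, and a probe set was taken where the platform annotation gave it a single one of these symbols. This gave 12 of the 45037 probe sets. Of these, 10 probe sets of 9 genes held values on the control arrays and were followed through all 10 groups. The second Ccl9 probe set and the Ccl24 probe set were followed through the 1 h, 12 h, 1 d, 2 d and 16 d groups.

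The study measured liver RNA of male C57BL6/N mice on 49 Affymetrix Mouse Genome 430 2.0 arrays, each giving 1 log2 expression value per probe set. The tested groups received acetaminophen (APAP, paracetamol) once at 300 mg/kg into the peritoneum, after a night without food and with food afterwards, and their livers were taken at 9 times, the early ones at 1 h, 6 h and 12 h, the middle ones at 1 d, 2 d and 4 d, and the late ones at 6 d, 8 d and 16 d. The comparison group was a control whose treatment the labels give as none, without saying whether it was starved or given the vehicle. The 6 h group had 4 arrays and each other group 5. No label says that an array stands for a separate mouse, so the p-values cover no more than the scatter among the arrays, part of which may be technical.

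Chemokines are small secreted proteins that bind G protein-coupled receptors on leukocytes and direct their migration along a gradient. In CC chemokines the first cysteines of the mature protein are adjacent. Ccl2 and Ccl7 act through Ccr2 on inflammatory monocytes. Ccl3 and Ccl5 act through Ccr1, among others, and with Ccl4 they attract macrophages and lymphocytes. Ccl6 and Ccl9 are mouse ligands of Ccr1 made largely by myeloid cells, Ccl17 and Ccl22 are ligands of Ccr4 on T cells, and Ccl24 is a ligand of Ccr3 on eosinophils. In the liver, an overdose of acetaminophen kills hepatocytes around the central vein, and blood monocytes enter the injured zone and take part in clearing it.

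The members followed different courses after the dose. Ccl2, Ccl7 and Ccl3 were highest at 2 d and near control at 4 d, Ccl6 was higher from 6 h to 4 d, and Ccl9 was higher from 12 h to 16 d. Ccl5 was called at 12 h, Ccl24 was called higher at 2 d than at the other 4 times it could be followed (3 of these calls were lost on normalizing the arrays again, and that against 12 h was not refitted), and Ccl4, Ccl17 and Ccl22 were called against control at no time. Here a probe set is called, and is said to rise or fall, when limma's adjusted p (Benjamini-Hochberg over all probe sets of the comparison) is under 0.05. A difference is that of 2 group means on the log2 scale, given ± its standard error in limma's fit, and levels are log2 values that were compared only within a probe set.

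The number of called members changed with time. No member probe set was called at 1 h, when 0.295% of all 8137 probe sets with control values were called higher, and 3 of the 10 had an unadjusted p under 0.05. At 6 h 2 of 10 were higher (3.61% of all), at 12 h 5 (11.5%), at 1 d 6 (16.0%) and at 2 d 6 (19.5%). At 4 d 3 of 10 were higher (9.07% of all), and at 6 d, 8 d and 16 d 1 each (5.06%, 4.5% and 2.89% of all). These counts are of probe sets, and both Ccl6 probe sets are among those called from 6 h to 4 d. With 1 probe set per gene, 1 was called at 6 h (3.77% of all genes were higher) and 4 at 12 h (11.4%). In that count 5 were called at 1 d (16.2%), 5 at 2 d (19.8%) and 2 at 4 d (9.82%). None of the 10 was called lower at any time, while the share of all probe sets called lower lay between 0.283% at 1 h and 12.8% at 1 d. The median difference of the members from control was 0.52 at 12 h, 0.71 at 1 d and 1.39 at 2 d, against medians of all probe sets of -0.04, -0.02 and -0.03 at the same times. By limma's F test over all 10 groups, 6 of the 10 varied between groups, against 52.8% of all probe sets. These 6 were the probe sets of Ccl2, Ccl7, Ccl3, Ccl6 and Ccl9.

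**Figure D1:**
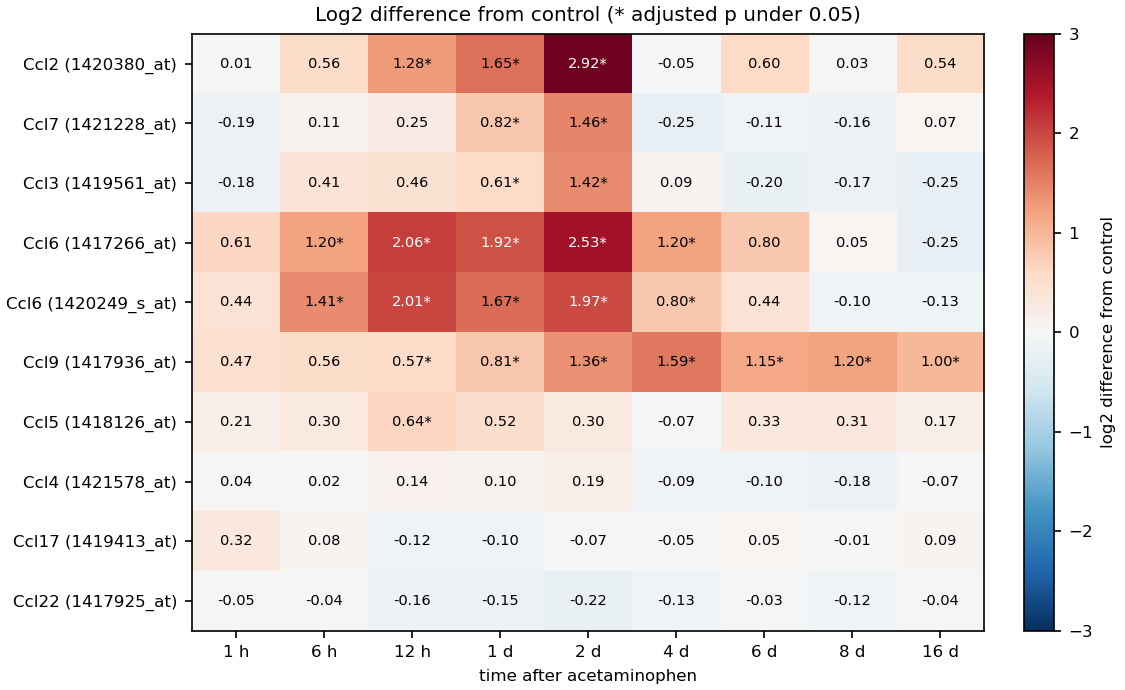
Log2 difference of each CC chemokine probe set from control (rows) at each time after acetaminophen (columns), with the value printed in each cell and a star where limma's adjusted p was under 0.05. Ccl2, Ccl7 and Ccl3 are starred up to 2 d, Ccl6 from 6 h to 4 d and Ccl9 from 12 h to 16 d.

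Some facts of the series bear on the values. Array means lay between 6.03 and 6.33, and the spread of values within an array was 2.40 to 2.48 (SD) on 46 arrays and 2.25 to 2.26 on 3 arrays, which were control replicate 3, 1 h replicate 3 and 16 d replicate 4. Within the control group, replicate 3 was the highest array for 6 of the 10 member probe sets and the lowest for 3. Without these 3 arrays 1 member was called at 1 h, 2 at 6 h, 4 at 12 h, 6 at 1 d and at 2 d, 2 at 4 d, and 1 at each later time. The liver label was checked on 3 hepatocyte markers, whose mean level was 10.80 to 12.02 on the arrays after acetaminophen and 11.32 to 12.06 on the control arrays. The arrays measured whole liver, so more cells of a kind and more RNA per cell cannot be told apart.

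Ccl2, also called MCP-1, is the main chemoattractant of inflammatory monocytes. Its values were 7.29, 7.41, 7.26, 7.83 and 9.06 on the 2 d arrays, against 4.75, 4.63, 5.19, 4.81 and 4.87 on the control arrays. Every 2 d array lay above every control array, and 2 d replicate 5 stood highest. The difference was 2.92 ± 0.35, a 7.57-fold higher level (adjusted p = 5.12e-09). The 1 d arrays read 6.03, 7.11, 5.81, 7.28 and 6.29, and the 12 h arrays 5.75, 6.05, 7.22, 6.29 and 5.36. All 10 of them were above every control array too. Ccl2 was higher than control by 1.28 ± 0.35 at 12 h (adjusted p = 0.00524) and by 1.65 ± 0.35 at 1 d (adjusted p = 0.000237). At 6 h the values were 5.01, 5.29, 5.05 and 6.30, and the difference of 0.56 was not called (adjusted p = 0.535). Ccl2 was higher at 2 d than in each of the other 9 groups.

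Both flanks of the Ccl2 peak passed the test between neighbouring times in the fit of all groups. The rise between 1 d and 2 d was 1.27 ± 0.35 (adjusted p = 0.0094). It rested on 2 d replicate 5, without which it was 0.94 with an adjusted p of 0.0671. Its call was also lost in a fit of the 1 d and 2 d groups alone (adjusted p = 0.0658). At 4 d the arrays read 4.87, 4.88, 4.78, 4.64 and 4.83, all within the range of the control arrays. The level at 4 d was lower than at 2 d by a difference of -2.97 ± 0.35 (adjusted p = 1.69e-08). Later the arrays of a group differed among themselves. The 6 d values were 5.67, 6.36, 4.63, 5.78 and 4.82, and the 16 d values 5.16, 4.83, 4.71, 5.41 and 6.87. At 6 d 3 arrays and at 16 d 2 arrays were above every control array, the others overlapped with control, and neither time was called (differences of 0.60 and 0.54, adjusted p = 0.366 and 0.548). The 8 d arrays, from 4.57 to 5.26, overlapped with control (0.03).

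Ccl7, or MCP-3, is the other Ccr2 ligand among the members and lies next to Ccl2 on chromosome 11. Its 2 d arrays read 5.28, 5.27, 4.35, 5.42 and 6.12, against 3.67, 3.81, 4.03, 3.88 and 3.75 on the control arrays. No array of the groups overlapped, with replicate 3 lowest and replicate 5 highest at 2 d. The difference was 1.46 ± 0.21, or 2.75-fold (adjusted p = 4.61e-07). The 1 d arrays, 4.31, 5.42, 4.30, 5.03 and 4.19, were also all above control (0.82 ± 0.21, adjusted p = 0.00266). At 12 h the values 4.01, 4.34, 4.53, 3.69 and 3.81 overlapped with control, and the difference of 0.25 was not called (adjusted p = 0.453). The level at 2 d was above that of each of the other 9 groups. At 4 d the arrays, 3.34, 3.91, 3.60, 3.65 and 3.40, were within or under the control range, lower than at 2 d (-1.71 ± 0.21, adjusted p = 7.54e-08). The rise of 0.64 between 1 d and 2 d (adjusted p = 0.0382) was lost on leaving out any one of 7 of these 10 arrays, namely 1 d replicates 1, 3 and 5 and 2 d replicates 1, 2, 4 and 5, with 0.43 and an adjusted p of 0.212 without the last. It was also lost on normalizing again (0.50, adjusted p = 0.0681) and on centring each array on its median (0.50, adjusted p = 0.109).

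Ccl3, or MIP-1 alpha, is a ligand of Ccr1. Its 2 d arrays read 5.78, 5.22, 5.49, 5.62 and 5.85, against 4.18, 3.55, 4.41, 4.43 and 4.31 on the control arrays. Every 2 d array was above every control array, and control replicate 2 lay under the other control arrays. The difference was 1.42 ± 0.22, or 2.67-fold (adjusted p = 2.23e-06). The 1 d arrays split, with 4.87, 5.34 and 5.26 above control and 4.13 and 4.32 within the control range. Their difference from control was 0.61 ± 0.22 (adjusted p = 0.0367). That call was lost without any one of control replicates 1 and 2 or 1 d replicates 1, 2 and 4, with 0.45 and an adjusted p of 0.147 without control replicate 2. The 12 h arrays split in the same way (4.03 and 4.07 against 4.61, 5.32 and 5.17) and were not called (0.46, adjusted p = 0.138). Ccl3 was higher at 2 d than in each of the other 9 groups. Its rise between 1 d and 2 d was 0.81 ± 0.22 (adjusted p = 0.00998; 0.65 and an adjusted p of 0.0543 without 1 d replicate 3), and at 4 d it was lower than at 2 d, by -1.33 ± 0.22 (adjusted p = 1.73e-05). The 4 d arrays, from 3.95 to 4.41, were within the control range.

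**Figure D2:**
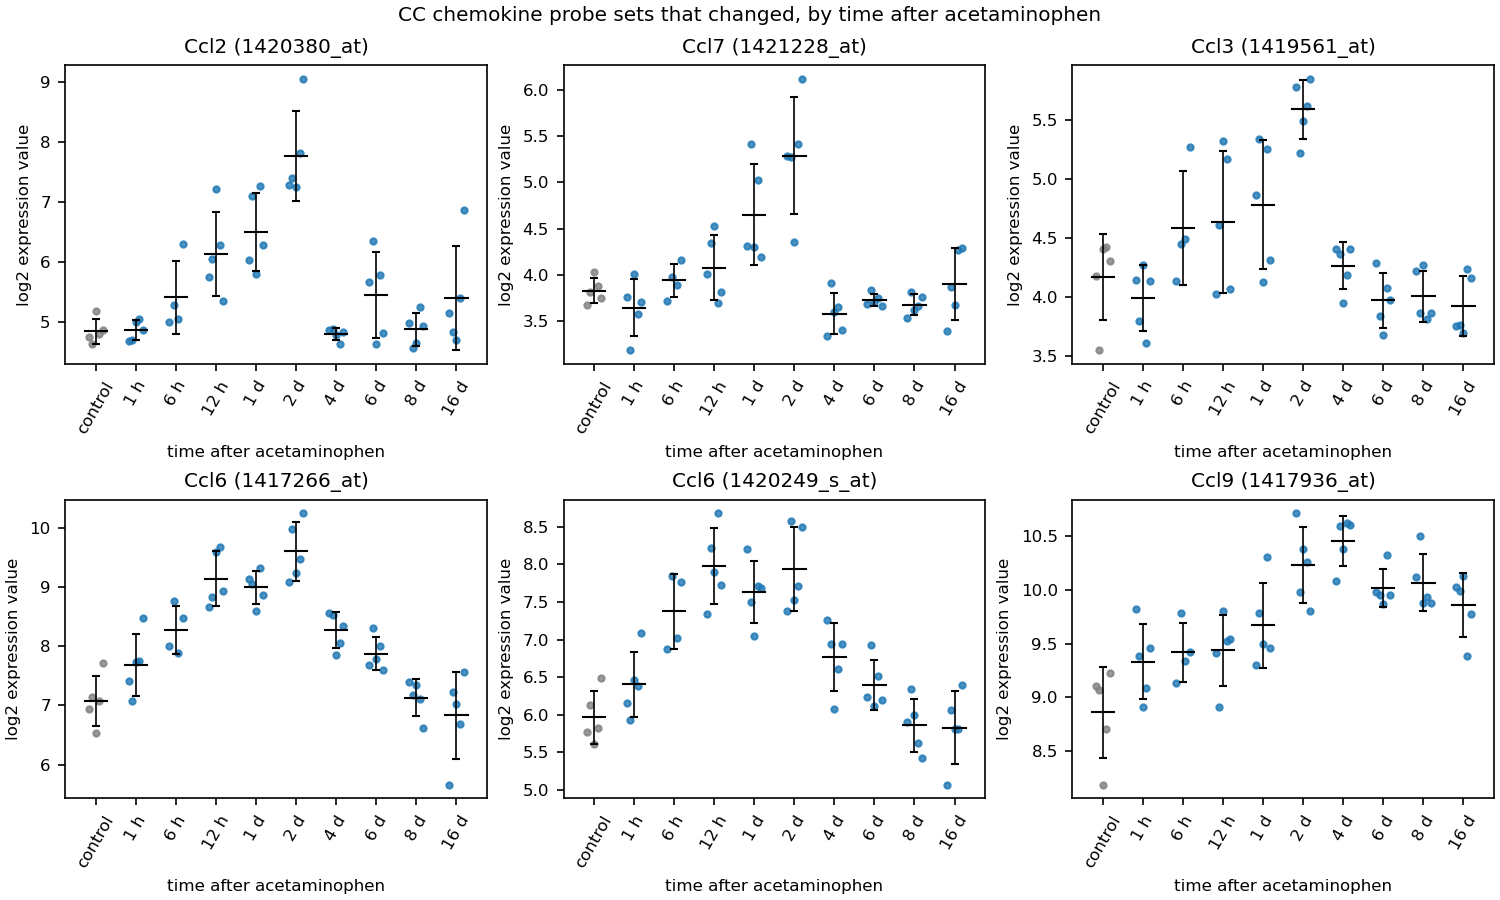
Log2 expression value (vertical axis) of the 6 probe sets that passed the F test over the 10 groups, by time after acetaminophen with control at the left; points are arrays, horizontal lines group means and bars ± SD. The 5 arrays of 2 d lie above all control arrays in every panel, the 4 d arrays of Ccl2 and Ccl3 lie within the control range, and the 16 d arrays of Ccl9 stay above it.

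Ccl6, known in macrophages and other myeloid cells, was called from 6 h to 4 d. Ccl6 and Ccl9 are neighbouring genes on chromosome 11, and their promoters share a stretch of similar sequence, with the highest alignment score of the 10 pairs among Ccl3, Ccl6, Ccl9, Ccl17 and Ccl22, the members with a RefSeq promoter entry. The promoters below are those of these neighbours, of which Ccl9 was called at 6 d, 8 d and 16 d and Ccl6 was not. The first Ccl6 probe set was close to the threshold at 6 d (limma's adjusted p = 0.0599), and the genes were not tested against each other. Whether the promoter sequences bear on their courses was not tested. Each runs from 250 bases before to 50 bases after the gene's start, 5′ to 3′ on the gene's strand, from RefSeq on GRCm38.p6, with the aligned stretch in capitals. Ccl6 lies at chr11:83593038-83593337 and Ccl9 at chr11:83578587-83578886, both on the minus strand.
Ccl6: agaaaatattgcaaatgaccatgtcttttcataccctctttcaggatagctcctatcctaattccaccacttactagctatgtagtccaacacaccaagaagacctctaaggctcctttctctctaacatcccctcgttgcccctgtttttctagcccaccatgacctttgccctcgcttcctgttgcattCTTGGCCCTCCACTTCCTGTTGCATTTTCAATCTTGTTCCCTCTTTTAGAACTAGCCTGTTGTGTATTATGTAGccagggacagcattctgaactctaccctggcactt
Ccl9: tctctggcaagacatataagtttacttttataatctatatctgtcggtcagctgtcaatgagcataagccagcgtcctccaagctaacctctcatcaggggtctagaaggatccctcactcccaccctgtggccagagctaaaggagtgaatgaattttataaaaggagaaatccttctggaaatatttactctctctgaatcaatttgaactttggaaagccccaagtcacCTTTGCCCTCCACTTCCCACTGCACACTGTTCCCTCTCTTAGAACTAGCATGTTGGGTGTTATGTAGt
The capitals cover bases 192 to 265 of the Ccl6 window and 233 to 299 of the Ccl9 window, and 59 of 74 aligned columns were identical (79.7%). The alignment score was 41, against at most 15 for the other 9 pairs. Both strands were searched for motifs. TGANTCA, the AP-1 motif, was found in Ccl9 alone of the 5 promoters and stands in 7.81% of 32851 RefSeq promoters. TATAAA was also found in Ccl9 alone (13.6% of all promoters). The loose NF-kB motif (GGG, 5 bases of any kind, CC) was found in Ccl9 and Ccl22, and 50.8% of all promoters hold it. The STAT6 motif (TTC, 4 bases of any kind, GAA) and the STAT motif with 3 such bases were found in Ccl17 alone (6.95% and 8.3% of all). The strict kappa B consensus and the interferon-stimulated response element (GAAA, 2 bases, GAAA) were found in none of the 5 (0.155% and 3.44% of all). The Ccl6 window held none of the motifs searched.

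The first Ccl6 probe set, 1417266_at, read 8.00, 8.76, 7.89 and 8.47 on the 6 h arrays, against 6.94, 7.14, 6.53, 7.07 and 7.71 on the control arrays. All 6 h arrays were above all control arrays, and the difference was 1.20 ± 0.29, or 2.31-fold (adjusted p = 0.00484). The 12 h arrays read 8.66, 8.84, 9.59, 9.68 and 8.94 and the 1 d arrays 9.13, 9.06, 8.60, 9.33 and 8.86, again all above control. They differed from control by 2.06 ± 0.27 (adjusted p = 1.29e-07) and 1.92 ± 0.27 (adjusted p = 3.02e-07). At 2 d the arrays read 9.08, 9.98, 9.24, 9.47 and 10.25. This was the highest mean, 2.53 ± 0.27 or 5.76-fold above control (adjusted p = 3.85e-10), and it was called against 7 of the other 9 groups, but not against 12 h or 1 d.

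Ccl6 declined after 2 d and remained above control at 4 d. Its 4 d arrays, 8.57, 8.53, 7.86, 8.06 and 8.35, were lower than at 2 d (-1.33 ± 0.27, adjusted p = 0.000266) and still all above control (1.20 ± 0.27, adjusted p = 0.00119). At 6 d the values 7.69, 8.31, 7.78, 8.00 and 7.60 overlapped with control, whose replicate 5 read 7.71, and the difference of 0.80 was not called (adjusted p = 0.0599). Without control replicate 5 it was 0.96 and was called (adjusted p = 0.026). It also passed without 16 d replicate 1 or 1 h replicate 5, which enter only through the shared spread (adjusted p = 0.0305 and 0.0486). By 8 d (0.05) and 16 d (-0.25) the arrays overlapped with control.

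The second Ccl6 probe set, 1420249_s_at, whose name marks probes that may match related transcripts, ran in parallel, with a correlation of 0.953 with the first over 49 arrays. It was higher than control by 1.41 ± 0.29 at 6 h (adjusted p = 0.000785), 2.01 ± 0.27 at 12 h (adjusted p = 2.46e-07), 1.67 ± 0.27 at 1 d (adjusted p = 4.74e-06) and 1.97 ± 0.27 at 2 d (adjusted p = 1.23e-07). At 6 h its arrays read 6.88, 7.84, 7.02 and 7.76, against 5.77, 6.13, 5.61, 5.82 and 6.49 on the control arrays, without overlap. Of the 10 member probe sets it alone was called between 1 h and 6 h (0.97 ± 0.29, adjusted p = 0.0418; 3.07% of all probe sets rose in that step). That step was lost without any one of 1 h replicates 1 to 4 or 6 h replicates 2 and 5, with values of 0.82 to 0.99, and the first probe set was not called there (0.59, adjusted p = 0.306). At 4 d the second set was 0.80 above control (adjusted p = 0.036). This was lost without any one of 4 d replicates 1, 2 and 5 or control replicates 1, 3 and 4, with 0.68 and an adjusted p of 0.118 without 4 d replicate 1.

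Ccl9, also a Ccr1 ligand in the mouse, was called at every time from 12 h to 16 d. At 16 d its probe set 1417936_at read 10.02, 9.99, 10.13, 9.38 and 9.77, against 9.11, 9.07, 8.19, 8.71 and 9.23 on the control arrays. All 16 d arrays were above all control arrays, and the difference was 1.00 ± 0.20, or 1.99-fold (adjusted p = 0.000539). The highest mean was at 4 d, with 10.08, 10.59, 10.38, 10.62 and 10.60. It was 1.59 ± 0.20 above control, or 3.02-fold (adjusted p = 5.6e-08). The 2 d arrays read 10.71, 9.98, 10.38, 10.26 and 9.80, and the 1 d arrays 9.30, 9.78, 9.50, 10.30 and 9.46. Every array from 1 d to 16 d was above every control array, with differences of 0.81 at 1 d (adjusted p = 0.00131), 1.36 at 2 d (adjusted p = 3.27e-07), 1.15 at 6 d (adjusted p = 6.15e-05) and 1.20 at 8 d (adjusted p = 2.97e-05). Ccl9 was the only 1 of the 10 probe sets called at 6 d, at 8 d and at 16 d. These calls are against control, which had the lowest mean of the 10 groups for this probe set. Against 1 h, in the fit of the 25 complete arrays, it was 0.53 higher at 16 d and not called (adjusted p = 0.326).

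The early values of Ccl9 were less certain, and no step between neighbouring times was called. At 12 h the arrays read 9.41, 8.91, 9.80, 9.52 and 9.54, with 4 of 5 above the control range. The difference of 0.57 ± 0.20 was called (adjusted p = 0.028), but not without the 3 narrow arrays (0.41, adjusted p = 0.1). It was also lost without any one of control replicates 3 and 4 or 12 h replicates 3, 4 and 5 (0.41 and an adjusted p of 0.135 without control replicate 3). At 1 h (0.47, adjusted p = 0.614) and 6 h (0.56, adjusted p = 0.126) 3 arrays each were above the control range and neither was called. The 4 d level was called above 5 of the other 9 groups. The step between 1 d and 2 d, 0.56 in size, was close to the threshold and passed it with array weights (0.61, adjusted p = 0.00995) and without 1 d replicate 4 (0.71, adjusted p = 0.00982), among others.

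The second Ccl9 probe set, 1448898_at, could be read on the 25 arrays of 5 groups. It read 10.03, 9.07, 9.69, 9.61 and 9.19 at 2 d, against 9.12, 8.69, 8.38, 8.56 and 8.68 at 1 h. Of the 2 d arrays 4 were above all 1 h arrays and replicate 2 was not. The difference was 0.84 ± 0.20 (adjusted p = 0.00423), beside 0.89 ± 0.21 for the first probe set on the same arrays (adjusted p = 0.00292). At 16 d it read 9.39, 9.36, 9.43, 8.75 and 9.19, which was 0.54 above 1 h and not called (adjusted p = 0.284). The correlation between both Ccl9 probe sets was 0.975 over 25 arrays.

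Ccl24, or eotaxin-2, was also read on those 25 arrays. Its values were 6.59, 6.27, 6.20, 6.25 and 6.19 at 2 d, against 5.94, 6.06, 6.08, 5.63 and 5.76 at 1 h. The groups did not overlap, and 2 d replicate 1 stood above the rest. The difference was 0.41 ± 0.12, or 1.33-fold (adjusted p = 0.0136). Both probe sets without control values were thus higher at 2 d than at 1 h, when 10.9% of all 45037 probe sets were, and both varied over the 5 groups by the F test (29.9% of all). Ccl24 was also higher at 2 d than at 12 h (0.48 ± 0.12, adjusted p = 0.006; 7.93% of all probe sets rose) and than at 1 d (0.39 ± 0.12, adjusted p = 0.0484; 4.0% of all). At 16 d it read 5.78, 6.12, 5.89, 5.67 and 6.09, lower than at 2 d (-0.39 ± 0.12, adjusted p = 0.0218; 9.04% of all were lower). Normalizing the 25 arrays again ended all 3 of these calls that were refitted, that of 2 d against 1 h (0.27, adjusted p = 0.149), that of 2 d against 1 d (0.29, adjusted p = 0.214) and that of 16 d against 2 d (-0.31, adjusted p = 0.109). The call of 2 d against 12 h was not refitted in this way. The step between 1 d and 2 d lost its call on leaving out any one of 17 of the 25 arrays, among them all 5 of 2 d, with 0.32 and an adjusted p of 0.164 without 2 d replicate 1. The step down to 16 d lost its call without 2 d replicate 1 (-0.32, adjusted p = 0.0719) or 16 d replicates 1 (-0.36, adjusted p = 0.0553) or 4 (-0.33, adjusted p = 0.0685).

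**Figure D3:**
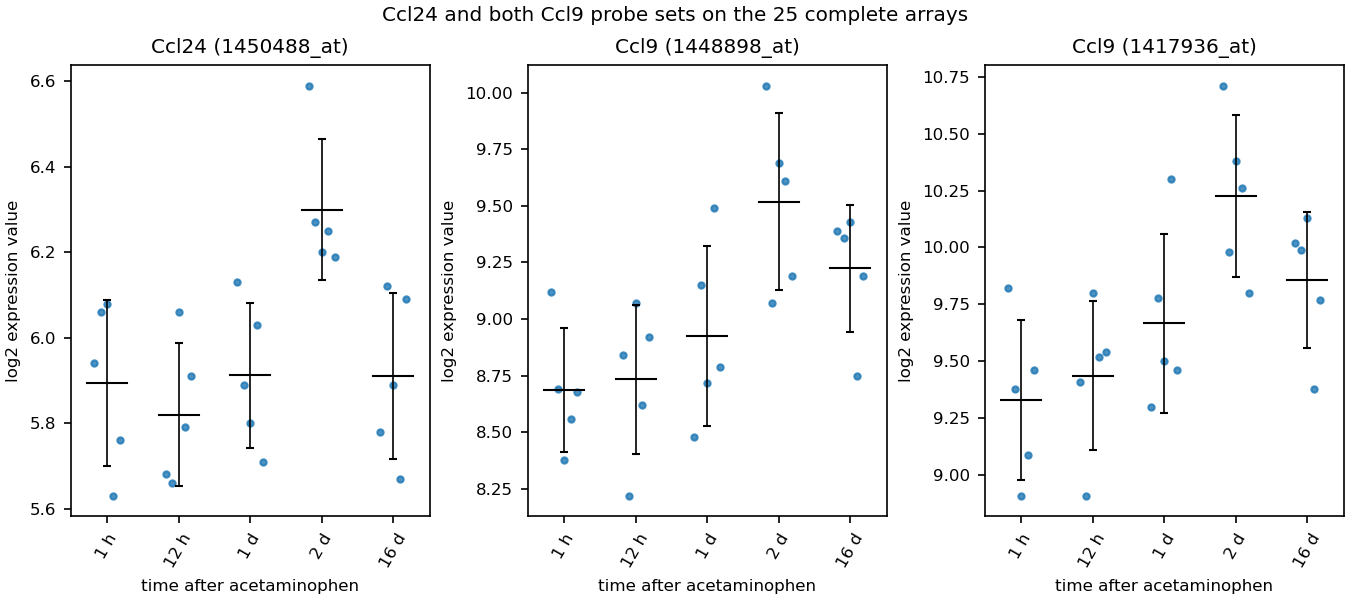
Log2 expression value (vertical axis) of Ccl24 and of both Ccl9 probe sets on the 25 arrays that held all probe sets, by time after acetaminophen; points are arrays, horizontal lines group means and bars ± SD. All 2 d arrays of Ccl24 lie above all its 1 h arrays, and both Ccl9 probe sets have their highest mean at 2 d among these 5 groups.

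Ccl5, or RANTES, draws T cells and monocytes. Its 12 h arrays read 5.76, 5.45, 5.62, 6.68 and 6.51, against 5.14, 5.21, 5.64, 5.53 and 5.32 on the control arrays. Replicates 4 and 5 of 12 h stood well above the rest, replicate 1 slightly above the control range, and replicates 2 and 3 within it. The difference of 0.64 ± 0.23 was called (adjusted p = 0.0437). The call was lost without any one of 12 h replicates 4 and 5 or control replicates 1, 2 and 5, with 0.47 and an adjusted p of 0.17 without 12 h replicate 4, and in a fit of those groups alone (adjusted p = 0.104). The 1 d arrays had the same split, with 6.43 and 6.59 in replicates 4 and 5 and 5.41 to 5.54 in the others, and were not called (0.52, adjusted p = 0.0905; 0.64 and an adjusted p of 0.0464 without 1 d replicate 3). By the F test over all groups Ccl5 did not pass (adjusted p = 0.198).

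Ccl4, or MIP-1 beta, attracts macrophages and lymphocytes and lies next to Ccl3. Its 2 d arrays read 6.18, 6.50, 6.34, 6.79 and 6.33, against 6.20, 5.67, 6.77, 6.22 and 6.32 on the control arrays. They overlapped, and its group means lay between 6.05 and 6.43. Its differences from control ranged between -0.18 and 0.19, with adjusted p of 0.403 at the least. Ccl4 was thus not called at 2 d, where its neighbour Ccl3 was, and the responses of both were not tested against each other.

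The Ccr4 ligands Ccl17 (TARC) and Ccl22 (MDC) were not called against control at any time. Ccl17 read 5.61, 5.82, 5.89, 5.65 and 5.49 at 1 h, against 5.35, 5.22, 6.02, 5.19 and 5.09 on the control arrays. The 1 h arrays were above 4 control arrays and under control replicate 3, one of the 3 narrow arrays. The difference was 0.32 (adjusted p = 0.469), and it was 0.48 and called without control replicate 3 (adjusted p = 0.00757). The highest 1 h array, replicate 3, is a narrow array too. Without all 3 narrow arrays the difference was 0.43 and called (adjusted p = 0.0234). By the F test over all groups Ccl17 did not pass (adjusted p = 0.061). In the fit of the 25 arrays Ccl17 was lower than at 1 h by -0.44 ± 0.10 at 12 h (adjusted p = 0.00422), -0.42 ± 0.10 at 1 d (adjusted p = 0.00468) and -0.39 ± 0.10 at 2 d (adjusted p = 0.00797). Ccl22 read 4.27, 4.57, 4.34, 4.29 and 4.09 at 2 d, against 4.48, 4.11, 4.99, 4.58 and 4.51 on the control arrays. The arrays overlapped, and the difference of -0.22 was the one farthest from 0 of its 9 (adjusted p = 0.214). With each array centred on its median, Ccl22 was lower at 2 d (-0.45, adjusted p = 0.0169).

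**Figure D4:**
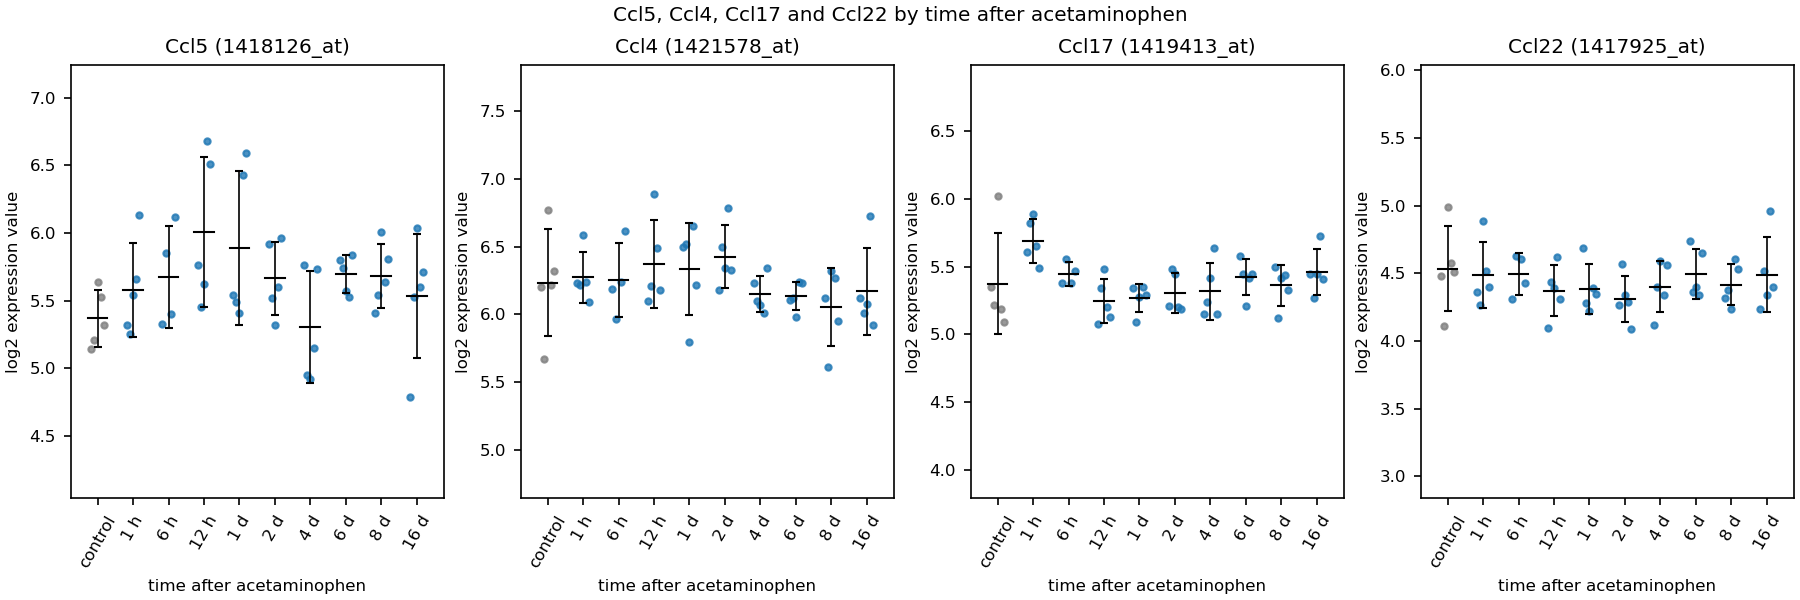
Log2 expression value (vertical axis, the same span in each panel) of Ccl5, Ccl4, Ccl17 and Ccl22 by time after acetaminophen with control at the left; points are arrays, horizontal lines group means and bars ± SD. For Ccl5 replicates 4 and 5 stand out at 12 h and at 1 d. In the other panels every group overlaps with control, and the 1 h arrays of Ccl17 lie above its 12 h, 1 d and 2 d arrays.

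Between neighbouring times the calls gathered around 2 d. Of the 10 probe sets followed through all groups, Ccl2, Ccl7 and Ccl3 rose between 1 d and 2 d (9.44% of all probe sets did), and these and both Ccl6 probe sets fell between 2 d and 4 d (12.6% of all). With the Ccl6 step between 1 h and 6 h this made 9 calls over the 8 steps. In a fit of the compared groups alone 5 calls were left, all of them falls between 2 d and 4 d. The rises of Ccl2, Ccl7 and Ccl3 between 1 d and 2 d lost their calls there (adjusted p = 0.0658, 0.27 and 0.0556). So did the Ccl6 step between 1 h and 6 h (adjusted p = 0.0757).

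The likeness of each member to the other measured genes was taken as the Pearson correlation over the arrays, as a description. These arrays share the time course, so genes that moved at the same times correlate. Over 49 arrays Ccl2 was most like Ccl7 (0.88), then the smooth muscle actin gene Acta2 (0.86) and Tagln (0.85), both markers of contractile myofibroblasts. Ccl7 was most like Ccl2, Acta2 (0.84) and the complement receptor C5ar1 (0.83). Ccl3 was most like Acta2 (0.84), Ccl2 (0.83) and Adam8 (0.83). Ccl6 had other neighbours, Ms4a6d (0.91), Cd93 (0.89) and Cyrib (0.87) for the first probe set and Cd93 (0.90), Myl12a (0.88) and Cd14 (0.88) for the second. The first Ccl9 probe set was most like Sqor (0.84), Gstm5 (0.83) and Asah1 (0.81). Its correlation was 0.16 with Ccl2 and 0.21 with the first Ccl6 probe set, beside 0.74 between Ccl2 and Ccl6. The second Ccl9 probe set had other neighbours over 25 arrays, Serf2 (0.89), Nans (0.88) and Edem1 (0.87). Genes without control values could be neighbours on the 25 arrays only. The closest neighbours of Ccl5, Ccl4, Ccl17 and Ccl22 had values of 0.71 (Nos3), 0.67 (Dnm2), 0.74 (Ccdc167) and 0.75 (Ppp1r3f), and Ccl24 was most like Tmem176a (0.80) over 25 arrays.

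Of the other CC chemokines on the list, 6 of 11 had control values. At 2 d 1 of the 6 was higher and 0 were lower, with a median difference of -0.12 against -0.03 for all genes, of which 19.8% were called higher and 12.6% lower at 1 probe set per gene. The called gene was Ccl12, a further mouse ligand of Ccr2, with 0.46 ± 0.13 (adjusted p = 0.00579). It rested on 2 d replicate 5, without which it was 0.26 (adjusted p = 0.0662).

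Among the receptors, 9 had control values. At 2 d 2 of the 9 were higher (19.8% of all genes) and 2 lower (12.6% of all genes). Ccr2, the receptor of Ccl2 and Ccl7, read 6.26, 5.96, 5.24, 6.58 and 6.93 at 2 d, against 3.95, 4.02, 4.15, 4.26 and 4.01 on the control arrays, without overlap. It was higher by 1.34 ± 0.22 at 1 d (adjusted p = 7.88e-06), 2.12 ± 0.22 at 2 d (adjusted p = 3.08e-10) and 0.80 ± 0.22 at 4 d (adjusted p = 0.0095). Ccr2 at 4 d was thus above control while Ccl2 and Ccl7 were not called. Ccr1, a receptor of Ccl3, Ccl5, Ccl6 and Ccl9, read 7.12, 6.85, 5.27, 7.95 and 5.41 at 1 d, against 4.30 to 4.40 on the control arrays. It was higher by 1.43 ± 0.41 at 12 h (adjusted p = 0.0089), 2.15 ± 0.41 at 1 d (adjusted p = 7.04e-05) and 2.04 ± 0.41 at 2 d (adjusted p = 0.000128), and its 12 h call was lost without 12 h replicate 3 (1.14, adjusted p = 0.0514) or 4 (1.05, adjusted p = 0.0594). The other 7 receptors lay between -0.61 and 0.18 in their 63 differences from control, of which 0 were called higher and 5 lower. These were in Ccr1l1 at 1 d and 2 d, Ccr3 at 12 h, and Ccr8 at 2 d and 4 d. Signal was low for Ccr3 and Ccr8, whose control means were 3.24 and 3.62. The Ccr8 call was lost in 6 of the alternative fits at 2 d and in 4 at 4 d. Ccr4, Ccr7, Ccr9 and Ccr10 were not called at any time. Ccr6 and Ccrl2, read on the 25 arrays, were not called against 1 h.

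Markers of monocytes and macrophages were also highest at 2 d, and their part in the members' values was not tested. Of 15 monocyte and macrophage markers 7 had control values. Of these, 7 of the 7 were higher at 2 d (19.8% of all genes), 6 at 1 d (16.2%) and 5 at 4 d (9.82%). The median difference of the 7 was 2.10 at 2 d, against -0.03 for all genes. Their mean level per array was 7.52 to 8.69 at 2 d, against 5.63 to 6.00 in control. Ccr2, Cd14 and Chil3 are among the 7, so the receptor above and the lists below that hold them share these values. The 2 d array with the highest marker level, replicate 5, was also the highest for Ccl2, Ccl7, Ccl3, Ccl5 and the first Ccl6 probe set. This array also had the highest mean over all probe sets with control values of the 49 arrays (6.33). It was the lowest of the 2 d arrays for the first Ccl9 probe set, Ccl17, Ccl22 and Ccl24, and replicate 2 was highest for the second Ccl6 probe set. At 4 d the marker level was 6.34 to 7.45, still above every control array, while Ccl2 and Ccl3 were within the control range. At 16 d it was 5.69 to 6.50, overlapping with control, while Ccl9 was called. Chil3, a macrophage secreted lectin, was 5.76 ± 0.46 above control at 2 d, and Lyz2 and Fcgr1 2.33 ± 0.29 and 2.10 ± 0.23. Of 6 further such markers read on the 25 arrays, 5 were higher at 2 d than at 1 h (14.3% of all genes), with Cd68 at 3.09 ± 0.22.

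**Figure D5:**
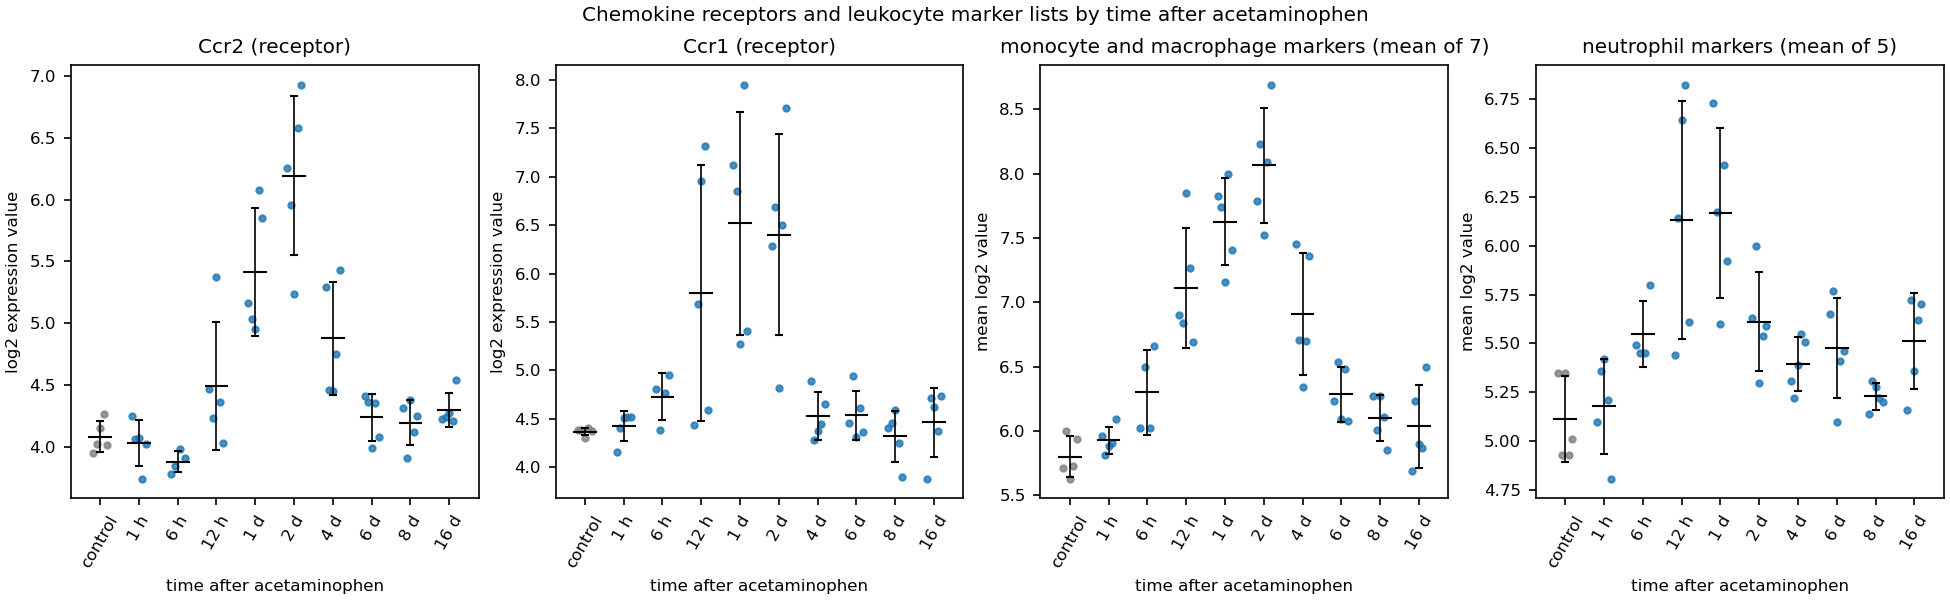
Log2 expression value of the receptors Ccr2 and Ccr1 and mean log2 value of 7 monocyte and macrophage markers and 5 neutrophil markers (vertical axes) by time after acetaminophen with control at the left; points are arrays, horizontal lines group means and bars ± SD. Ccr2 and the monocyte and macrophage markers have their highest means at 2 d, Ccr1 at 1 d. Ccr2 is also 1 of the 7 markers.

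Other cell type lists were read in the same way, beside 19.8% of all genes called higher and 12.6% called lower at 2 d. Of 5 neutrophil markers 2 were higher at 12 h (11.4% of all genes), with S100a8 at 4.32 ± 0.63, and their mean level was 5.44 to 6.82 at 12 h, against 4.93 to 5.35 in control. Of 2 Kupffer cell markers 1 was higher at 2 d, and their mean level was 8.95 to 9.81, against 8.35 to 9.36 in control. Of 6 stellate cell and myofibroblast markers 5 were higher at 2 d, with a median of 2.65 and a mean level of 7.26 to 7.87, against 4.81 to 5.34 in control. Of 8 T and NK cell markers 0 were higher and 3 lower at 2 d, with a mean level of 4.51 to 4.71, against 4.74 to 5.32 in control. The 5.32 was control replicate 3, a narrow array, and the other control arrays read 4.74 to 4.89. Of the 3 calls, that of Cd3g was lost without the narrow arrays and that of Cd3e with array weights. Of 4 B cell, 4 dendritic cell, 3 eosinophil and mast cell, 3 endothelial and 3 hepatocyte markers, 0, 1, 0, 2 and 0 were higher and 1, 0, 1, 0 and 0 lower at 2 d.

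Genes upstream of chemokine expression and genes that clear chemokines were read from lists as well. Of all genes, 19.8% were called higher and 12.6% lower at 2 d, and 11.4% were called higher at 12 h. Of 12 measured NF-kB and inflammatory cytokine pathway genes 5 were higher and 1 lower at 2 d (median 0.34), with the endotoxin co-receptor Cd14 at 2.00 ± 0.39 and Tlr4 at 1.22 ± 0.18. Of 7 type 2 cytokine and alternative activation genes 3 were higher at 12 h, with the alarmin Il33 at 1.50 ± 0.26. Of 5 interferon-linked genes 2 were higher and 1 lower at 2 d, with Irf7 at 1.14 ± 0.19. Of 6 atypical receptors and chemokine-trimming proteases 2 were higher and 2 lower at 2 d, with the protease Mmp14 at 1.05 ± 0.29. Mmp12, a macrophage elastase that trims CC chemokines, was 4.38 ± 0.38 higher at 1 d than at 1 h on the 25 arrays (adjusted p = 3.64e-08).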

How the data were processed

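The arrays measured total liver RNA, 1 array per sample. Per the submitters' processing notes, the authors ran RMA (robust multi-array averaging) with oligo 1.52.0, and the deposited values are on a log2 scale, 1 per probe set and array. Whether this was done in 1 run for the 49 arrays is not stated here. In the deposited table as used, 25 arrays held values for all probe sets and 24 arrays, among them the control arrays, for the first part of the table, so 8137 probe sets could be compared with control. Platform control probe sets were left out. Arrays have no read depth, and their number limits the precision; the first quartile of the control group's mean values was 4.29, and a change from so low a level is easily understated.

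Group differences were fitted by limma 3.58.1 in R 4.3.3, with 1 mean per group over all arrays and Benjamini-Hochberg adjustment over all probe sets of a comparison, at a threshold of 0.05. Probe sets without control values were fitted on the 25 arrays with 1 h as the comparison group. For a list, the probe set with the highest mean stood for its gene. The fit was tested on simulated data. The replicate numbers did not enter the fit. Promoters came from RefSeq (GRCm38.p6), which gave entries for 5 of the 10 members, and were aligned locally with Biopython 1.88.

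All probe sets of the members are described. Of each list the text names called genes among the 4 that differed most at the time with most calls, every receptor, and the 3 genes most like each member, or the first of them. The members and lists were chosen with earlier results of these data known. Alternatives were 1 probe set or the mean per gene, leaving out probe sets marked for cross-matching, dim probe sets (mean under 6) or single arrays, limma's trend and robust options, array weights, normalizing again, median centring, replicate number as a block, leaving out 3 narrow arrays, and fitting only the compared groups.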

Additional observations from a re-analysis of the deposited data

Results flagged for a closer look

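In 6 of 110 combinations of a member probe set and a group, the highest or lowest array lay farther from the others than Dixon's 95% critical value allows. Chance flags about 1 in 20, or 5.5 of 110. Ccl3 read 3.55 on control replicate 2, against 4.18 to 4.43 on the other control arrays. Ccl17 read 6.02 on control replicate 3, one of the 3 narrow arrays, against 5.09 to 5.35, and 5.09 on 1 d replicate 2, against 5.28 to 5.35 on the other 1 d arrays. Ccl4 read 6.73 on 16 d replicate 4, another narrow array, against 5.92 to 6.12. Ccl9 (1417936_at) read 10.32 on 6 d replicate 4, against 9.87 to 9.98, and Ccl24 read 6.59 on 2 d replicate 1, against 6.19 to 6.27.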

How the results depend on the processing

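No called member difference turned its direction under any alternative run. The count of called members at 2 d was 6 on leaving out any single array, and at 8 d and 16 d it was 1 under every alternative. The count at 1 h was 1 with array weights and 1 without the 3 narrow arrays, in both cases Ccl17. At 6 h it was 1 with 1 probe set per gene, 1 with the mean per gene and 1 without probe sets marked for cross-matching, each of which leaves 1 Ccl6 value by construction. At 12 h it was 3 when only the compared groups were fitted. At 6 d it was 2 without dim probe sets, 2 with the replicate number as a block and 2 with only the compared groups, where Ccl6 joined Ccl9. Calls over the 8 steps fell to 5 with only the compared groups. Normalizing the 25 arrays again left 1 of the 2 calls against 1 h and 1 of 2 in the F test over 5 groups; the cause was not tested. Leaving out 1 array in turn gave 0 to 1 calls at 1 h, 2 to 2 at 6 h, 3 to 6 at 12 h, 5 to 7 at 1 d, 6 to 6 at 2 d, 2 to 3 at 4 d, 1 to 2 at 6 d, 1 to 1 at 8 d and at 16 d, 7 to 11 over the steps, 2 to 2 against 1 h, 6 to 7 in the F test over 10 groups and 1 to 2 over 5 groups. The extremes came without control replicate 3 at 1 h, without 12 h replicate 4 or 5 at 12 h (3 calls), without 16 d replicate 1, 1 h replicate 5 or control replicate 5 at 6 d, and without 2 d replicate 1 in the F test over 5 groups. Centring each array on its median shifted all differences from control at 2 d by -0.23.

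Same-numbered arrays of different groups did not share their deviations throughout (mean correlation 0.07 over 216 pairs, -0.01 for 864 pairs of different number), though 29 of 49 arrays correlated best with their own number. The labels do not say that a number marks a shared batch. Beside the 6 d count above, the replicate block gave a call for Ccl5 at 1 d (0.52, adjusted p = 0.0473) and for Ccl6 between 6 h and 12 h (0.88, adjusted p = 0.0368), and ended that of Ccl24 between 1 d and 2 d (0.39, adjusted p = 0.0597). Low signal limits Ccl7 and Ccl3, whose control means of 3.83 and 4.18 lay under the first quartile of all control means (4.29).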

Other observations

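On the 25 complete arrays, Ccl27a, a CC chemokine known from epithelia, was lower at 12 h than at 1 h, by -1.10 ± 0.24 in limma's fit (adjusted p = 0.00271), and the other such gene read there was not called. Of 7 Kupffer cell markers on these arrays 3 were higher (14.3% of all genes) and 1 lower (12.5% of all genes) at 2 d than at 1 h. Marco, Cd5l and Vsig4 were higher by 2.16 ± 0.26, 0.73 ± 0.21 and 0.62 ± 0.19 (adjusted p = 1.32e-06, 0.0129 and 0.0244), and the complement component gene C6 was lower, by -2.19 ± 0.23 (adjusted p = 2.95e-07). The haptoglobin-haemoglobin receptor Cd163 was higher than control at 6 h by 1.25 ± 0.28 (adjusted p = 0.00213). Ccl6 was first called at 6 h too, and a link between these genes was not tested.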
